A study of Mus musculus with 54 samples.

Results

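Zfp42 and its neighbours Triml1, Triml2 and Adam26b lie on mouse chromosome 8 in a stretch that replicated early in S phase in embryonic stem cells (ESCs) and very late in neural precursor cells (NPCs) and in mouse embryonic fibroblasts (MEFs). The 4 genes were chosen on the measured timing of this locus in these profiles, so the timing levels of the cell types are described here with no test. Their bodies overlap 5 windows of 50 kb among the 43941 autosomal windows of the deposited table. On mm10, Triml1 spans chr8:43129806-43180494 (50689 bp), Triml2 chr8:43180463-43193884 (13422 bp), Zfp42 chr8:43295067-43307009 (11943 bp) and Adam26b chr8:43519864-43528137 (8274 bp). Triml1 and Triml2 overlap at their ends and share the window that starts at 43150001, so their values are not independent.

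Zfp42 encodes Rex1, a zinc finger protein related to YY1 and one of the most widely used markers of undifferentiated ESCs. Triml1 and Triml2 encode proteins of the tripartite motif type, and Adam26b belongs to the ADAM family of membrane proteins with a metalloprotease-like domain. Mammalian genomes replicate in large domains, and domains of open, transcribed chromatin tend to replicate early while compact chromatin at the nuclear periphery tends to replicate late. A gene that is silenced during differentiation can lie in a domain that moves from early to late replication.

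The assay was Repli-Seq: newly made DNA is labelled in growing cells, cells of early and of late S phase are sorted apart, and the labelled DNA of each is sequenced. The cells were F1 hybrids of inbred mouse strains, so that reads over strain variants could be given to 1 parental genome, and a value is the log ratio (read as log2) of early to late signal on 1 allele, with positive values for early replication. ESCs came from 5 lines of 129 and Cas (Mus castaneus) parents: F121 (1 profile, 2i medium), F121-6 and F121-9 (4 profiles each, 2 in 2i medium and 2 on feeders), F123 (2 profiles, 2i, labelled male) and Cas129 (2 profiles, 2i). The cross is given with 129 first for F121, F121-6, F121-9 and F123, and with Cas first for Cas129, and all of these but F123 are labelled female. NPCs at day 11 of differentiation were available from Cas129 (2 profiles) and F121-9 (1 profile). MEFs came from 4 embryos of a cross with Cas named first, with 2 profiles per embryo, and the sex given is female for embryos 1 and 2 and male for embryos 3 and 4. Hybrids of other strains were the V6.5 ESC line (C57B6 and 129, male, 1 profile in 2i) and a line of XEN cells, which model the extraembryonic endoderm (C57B6 and Cas, female, 2 profiles), and their values are given with no test. Lines and embryos, after averaging of their profiles, were the units, so n is 5 for ESCs, 2 for NPCs, 4 for MEFs and 1 each for V6.5 and XEN. The labels do not say whether F121, F121-6 and F121-9, which share a name, are separate derivations, nor whether repeat profiles came from separate cultures. P-values of the allelic differences and border offsets therefore measure the spread between these units. The fits of the allelic difference pool this spread over ESCs, NPCs and MEFs. As the labels leave the origin of these lines open, n = 5 may overstate the number of independent ESC lines. Counts and offsets with these 3 lines averaged as 1 unit, an alternative chosen after seeing the data, are given beside the results.

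The read depth is unknown, because the table holds no counts. The 34 ESC and NPC columns had autosomal medians of -0.94 to -0.52 and the 20 MEF and XEN columns -0.21 to 0.07, so levels of MEFs and XEN cells are set against a differently scaled set. Timing at marker genes was a partial check of the labels: 4 of 6 ESC markers, 3 of 6 NPC markers, 4 of 6 MEF markers and 4 of 5 measured XEN markers were earliest in their own cell type. In embryo 1, labelled female, the X of the 129 allele was flat (SD of 0.278 over its windows against 2.32 on Cas), and in embryo 3, labelled male, neither X was flat (1.33 and 1.67), so these 2 embryos go against their sex labels. Leaving both out gave 0 called windows in MEFs, as with all 4 embryos, and 4 in place of 6 for the difference between MEFs and ESCs described below. V6.5, labelled male, also had no flat X (SD of 2.27 on 129 and on C57B6). In F123, labelled male too, the SD was 0.177 on Cas. The reason for the V6.5 values was not tested.

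The promoters of the members differ in base composition, and Zfp42 and Adam26b are shown as the most and the least CpG-rich of the 4. All 4 members matched an entry of the RefSeq promoter table (GRCm38.p6), which gives 250 bases before to 50 after the start. The octamer ATTTGCAT, the sequence bound by the pluripotency factor Oct4 and its relatives, is in capitals.

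Zfp42, chr8:43306960-43307259, minus strand, 5′ to 3′: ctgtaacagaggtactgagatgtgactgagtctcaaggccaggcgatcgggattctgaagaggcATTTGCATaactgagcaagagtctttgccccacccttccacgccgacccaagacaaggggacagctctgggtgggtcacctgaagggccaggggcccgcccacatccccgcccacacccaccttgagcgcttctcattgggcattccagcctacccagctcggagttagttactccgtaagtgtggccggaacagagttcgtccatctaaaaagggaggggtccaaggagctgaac

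Adam26b, chr8:43528088-43528387, minus strand, 5′ to 3′: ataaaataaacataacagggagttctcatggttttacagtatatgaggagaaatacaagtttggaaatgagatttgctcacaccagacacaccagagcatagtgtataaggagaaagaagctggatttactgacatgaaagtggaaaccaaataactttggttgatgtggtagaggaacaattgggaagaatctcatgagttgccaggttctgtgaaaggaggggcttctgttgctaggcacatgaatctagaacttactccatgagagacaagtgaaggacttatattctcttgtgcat

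The Zfp42 window holds 1 octamer, in the given orientation and with its first base at position -186 from the start. The letters were searched on both strands, and they are in 570 of 32851 promoters of this length (1.74%). They are not in the windows of Triml1, Triml2 or Adam26b. The starts that the table gives for Triml1 and Triml2 lie inside the gene spans given above and not at their ends, so other starts of these genes were not searched. The Zfp42 window has 11 CpGs and 57.7% G and C, against medians of 7 CpGs and 52.7% over all promoters. Triml2 has 9 CpGs (48.0% G and C), Triml1 has 2 (41.3%) and Adam26b has 0 (39.3%).

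In ESCs, Zfp42 replicated early on both alleles of every line. On the 129 allele its timing was 2.19 in F121, 1.71 in F121-6, 2.57 in F121-9, 1.96 in F123 and 2.08 in Cas129. On the Cas allele it was 1.51, 2.30, 1.79, 1.54 and 1.18 in the same order. The 129 allele was thus the earlier in 4 of 5 lines, and F121-6 was the exception. In NPCs, the 129 allele lay at -3.53 in both F121-9 and Cas129, and the Cas allele at -3.95 and -3.81. In MEF embryos 1 to 4, the 129 allele lay at -3.85, -3.86, -4.10 and -3.59 and the Cas allele at -4.01, -4.07, -4.06 and -3.69. No NPC or MEF value came near the lowest ESC value (1.18), and NPCs and MEFs overlapped each other on the columns as read.

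As the mean of both alleles, Zfp42 timing was 1.88 ± 0.22 in ESCs (SD, n = 5), 0.99 in V6.5, -2.06 in XEN cells, -3.70 ± 0.05 in NPCs (n = 2) and -3.90 ± 0.19 in MEFs (n = 4). Of the neighbours in this order, NPCs and MEFs overlapped on the columns as read, since the NPC lines (-3.74 and -3.67) lie within the MEF range (-4.08 to -3.64). After median centring of the columns, the Zfp42 means were -3.05 in NPCs and -3.88 in MEFs. Whether these cell types differ here thus depends on the scaling. V6.5 lay below the lowest of the 5 ESC lines (1.63). XEN cells took a place between ESCs and the other types on each allele, at -2.70 on C57B6 and -1.43 on Cas.

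**Figure D1:**
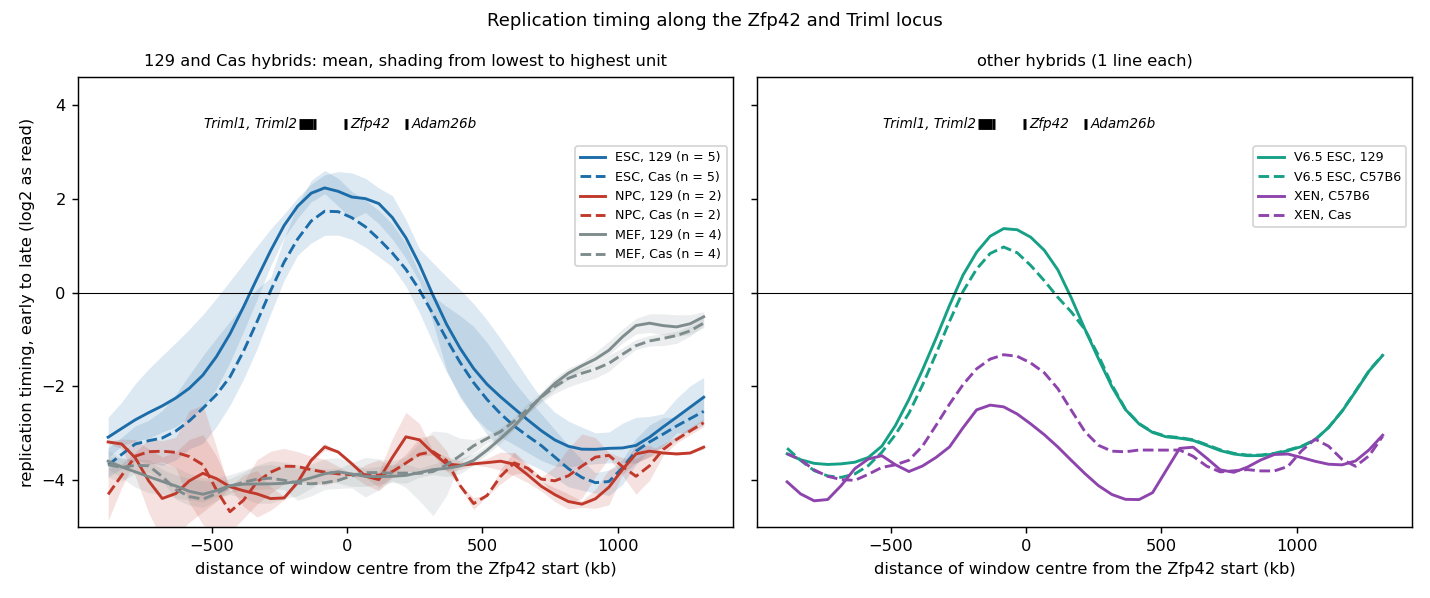
Replication timing (vertical axis, early to late log ratio) against the distance of each window from the Zfp42 start (kb), with 129 or the first allele as solid and Cas or the second allele as dashed lines. Left: means of 5 ESC lines, 2 NPC lines and 4 MEF embryos with the range of units shaded. Right: V6.5 ESCs and XEN cells. ESCs peak between the Triml genes and Zfp42, NPCs and MEFs stay near -4 there, and XEN cells have a lower bump that is higher on Cas.

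The drop from ESCs to NPCs was 5.59 at Zfp42, and 13 of 43941 autosomal windows (0.0296%) differed by at least as much. It was 5.44 at Triml1, 5.51 at Triml2 and 4.19 at Adam26b, while the median of all windows was -0.03. Against MEFs the ESCs were earlier by 5.79 at Zfp42, 5.69 at Triml1, 5.84 at Triml2 and 4.71 at Adam26b, beside a median of -0.38 over all windows, and 8 windows reached the value of Zfp42. The counts of windows that reached the Zfp42 value, for NPCs and for MEFs, include windows of the locus itself. Against XEN cells the difference was 3.95 at Zfp42 and 4.25 at Adam26b. All 5 member windows lay at least 1 later in NPCs with no overlap of lines, which held for 15.8% of autosomal windows. The same was true of all 5 against MEFs, where the autosomal share was 13.6%, and of all 5 against XEN cells, where it was 10.5%. These counts restate the choice of the genes and support nothing further. After median centring of the columns, which moves MEFs and XEN cells against ESCs, the Zfp42 differences were 6.43 against MEFs and 4.61 against XEN cells.

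Triml1, described for its expression in early embryos, and Triml2 followed Zfp42. Triml2 had 129 values of 1.94, 2.26, 2.32, 2.00 and 2.10 in the same order of lines, and Cas values of 1.45, 2.40, 1.51, 1.22 and 1.06. In MEFs its 2 alleles ran from -4.34 to -3.66, and in NPCs from -4.07 to -3.49, so that no allele of either type came near the ESC range. Triml1 had an ESC mean of 1.66 ± 0.29, an NPC mean of -3.78 ± 0.22 and a MEF mean of -4.03 ± 0.26. Over the 13 lines and embryos, which share the strong split between ESCs and other types, Pearson's r with Zfp42 was 0.998 for both Triml genes.

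Adam26b, at the right end of the stretch, was the latest of the members in ESCs. Its 129 values were 0.83, 1.56, 1.49, 0.73 and 1.24 in the lines as ordered above, and its Cas values 0.39, 1.05, 0.58, 0.14 and 0.33, so all were above 0. In V6.5 it lay below 0, at -0.78 on 129 and -0.79 on C57B6, the only member that was not early there. In XEN cells it was at -3.86 on C57B6 and -2.97 on Cas, further down than Zfp42. NPC alleles ran from -3.83 to -2.56 and MEF alleles from -4.16 to -3.51.

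**Figure D2:**
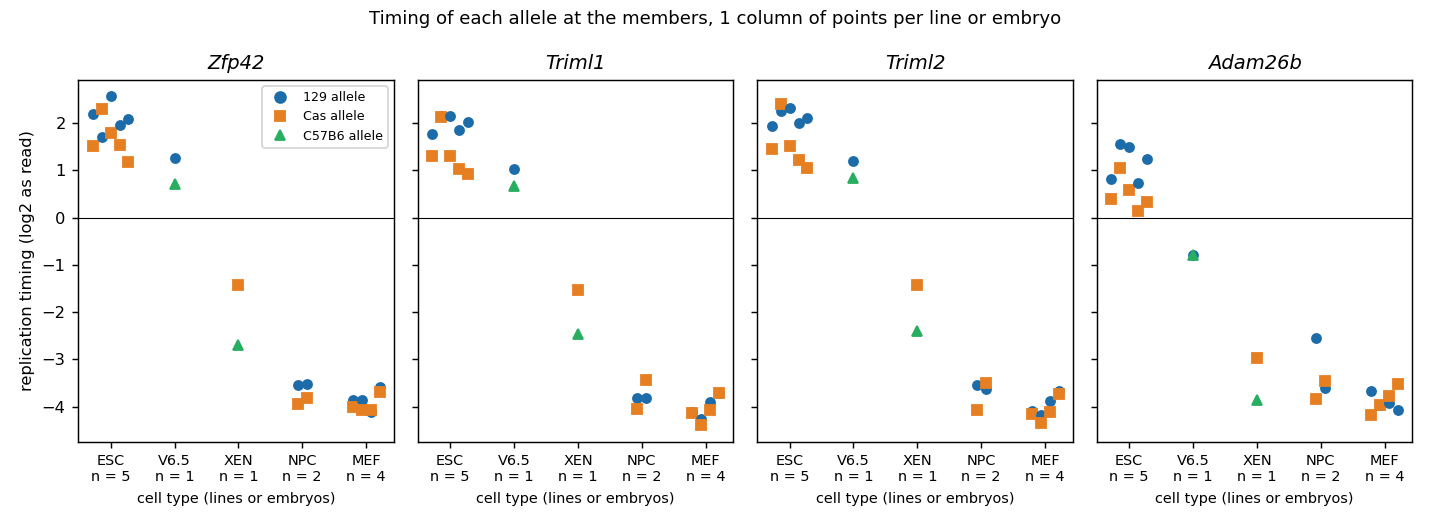
Timing of each allele (vertical axis, log ratio) at the 4 members in ESC lines, V6.5, XEN cells, NPC lines and MEF embryos, with 1 column of points per line or embryo and colours for the 129, Cas and C57B6 alleles. All ESC points lie above 0 and all NPC, MEF and XEN points below it, and Adam26b in V6.5 is at -0.78 and -0.79.

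The early stretch of ESCs was defined as the run of windows around Zfp42 with a mean timing above 0 over 5 lines and both alleles. It holds 12 windows, chr8:43000001-43600000, and its outermost windows had means of 0.46 on the left and 0.33 on the right, while the windows just outside had -0.16 and -0.26. The highest value of each allele lay in the windows between Triml2 and Zfp42, from 43150001 to 43300000, in every ESC line, V6.5 included. Around it the timing fell to -3.38 to -3.85 in the windows from 42000001 to 42500000, so Zfp42 stood 5.03 to 5.99 above its left flank in the 5 lines, 4.27 in V6.5 and 1.57 in XEN cells. In NPCs Zfp42 was within 0.51 of the same flank and in MEFs it lay 0.51 to 1.08 below it. The locus is therefore a peak in ESCs, a small bump in XEN cells and part of a flat or deepening late stretch in NPCs and MEFs. That late stretch, bounded by the first values above 0 on each side, measured 4491 and 4577 kb in the NPC lines, 3127 to 3168 kb in the MEF embryos and 3867 kb in XEN cells. With the level midway between the highest and the lowest value nearby, it measured 3008 kb in F121-9 NPCs and 3404 kb in Cas129 NPCs. By that level it was 2491 to 2653 kb in MEFs and 3494 kb in XEN cells. The order of NPCs and XEN cells thus depends on the level.

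The stretch sits in a gene-poor region. No annotated protein-coding gene lies in the 1713 kb between Frg1, a gene linked to RNA processing, and Triml1, and 17 protein-coding genes besides the members lie within 2 Mb. Of these, 6 had an ESC timing above 0: Adam26a, which lies inside the stretch (0.33), and the 5 genes from Mtus1 to Frg1 on the far left (1.71 to 2.50). Next to the right border, Adam34l (-0.81), Adam34 and Gm5347 (both -0.83) were already below 0. In NPCs 11 of the 17 were later by at least 1 and 2 were earlier by at least 1. In MEFs 4 were later by at least 1, Adam26a, Adam34l, Adam34 and Gm5347, and 6 were earlier by at least 1. Fat1, a giant atypical cadherin and the next gene on the right, had a timing of -0.65 in ESCs, -2.09 in NPCs, -0.21 in MEFs and -1.77 in XEN cells. Its levels in ESCs and MEFs are about as far apart as the shift between the separately scaled columns (a median of -0.38 over all windows), so their order cannot be read. The MEF counts above carry the same shift. The share of all windows past the same size was not counted for these lists of neighbours.

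In ESCs the 129 allele replicated earlier than the Cas allele over most of the stretch. The mean of 129 minus Cas over the 12 windows was 0.64 and ranged from 0.43 to 0.85 between windows. With limma, 9 of the 12 windows were called (a size of 0.5 or more, with an adjusted p by Benjamini-Hochberg under 0.05), all with an earlier 129 allele, beside 25.2% of autosomal windows called in either direction. The 3 windows that missed the call lie together, from 43200001 to 43350000, and include both windows of Zfp42. Without F121-6 all 12 windows were called, and without Cas129 there were 7. With F121, F121-6 and F121-9 as 1 unit there were 11.

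Zfp42 had a 129 minus Cas value of 0.68 in F121, -0.59 in F121-6, 0.78 in F121-9, 0.42 in F123 and 0.90 in Cas129. The mean was 0.44 ± 0.60 (SD, n = 5), and neither window passed the test (0.43 ± 0.17 SE, limma adjusted p = 0.053, and 0.44 ± 0.17, adjusted p = 0.057). Both were called without F121-6 (mean 0.695) and with F121, F121-6 and F121-9 as 1 unit (mean 0.54). The SE of a limma test rests on 1 spread per window, shared by ESC, NPC and MEF units. The SDs of these groups at Zfp42 were 0.60, 0.10 and 0.11, so the shared spread does not describe the ESC lines alone. Triml1 differed by 0.65 ± 0.42, with both windows called (0.70 ± 0.13 SE, limma adjusted p = 0.000776, and 0.59 ± 0.15, adjusted p = 0.0051). The second of these is also the window of Triml2, where 4 of 5 lines had an earlier 129 allele and F121-6 had -0.14. That value averages 2 media: F121-6 had 0.42 and 0.73 at Triml2 in 2i and -1.02 and -0.69 on feeders. F121-9, the other line with both media, had 0.66 and 0.62 at Triml2 in 2i and 0.96 and 0.99 on feeders. Without Cas129 the shared window fell to 0.48, under the size for a call, which ended the call of Triml2 and of that window of Triml1. Adam26b differed by 0.67 ± 0.22, with an earlier 129 allele in 5 of 5 lines (limma adjusted p = 0.0087). The lowest Adam26b value was 0.44, in F121, and the highest 0.91, in F121-9 and Cas129. F121-9 and Cas129 come from opposite crosses, and at all 4 members both had an earlier 129 allele.

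Within the run of called windows, the mean allelic difference was largest on the left slope of the peak and not at its summit. At chr8:42900001-42950000, a window chosen for this value and so given with no test, the 129 allele lay at -0.31 and the Cas allele at -1.25, a difference of 0.95 ± 0.05 (SD, n = 5 lines, 0.87 to 1.02). The called windows ran without a gap from 42350001 to 43200000, 17 windows, most of them outside the early stretch. Lines were alike in the chosen window but not over the whole run. They spanned 0.36 to 1.17 in the window at 42600001 and -0.14 to 1.04 in the window at 43150001. At Zfp42 the lines spanned -0.59 to 0.90.

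**Figure D3:**
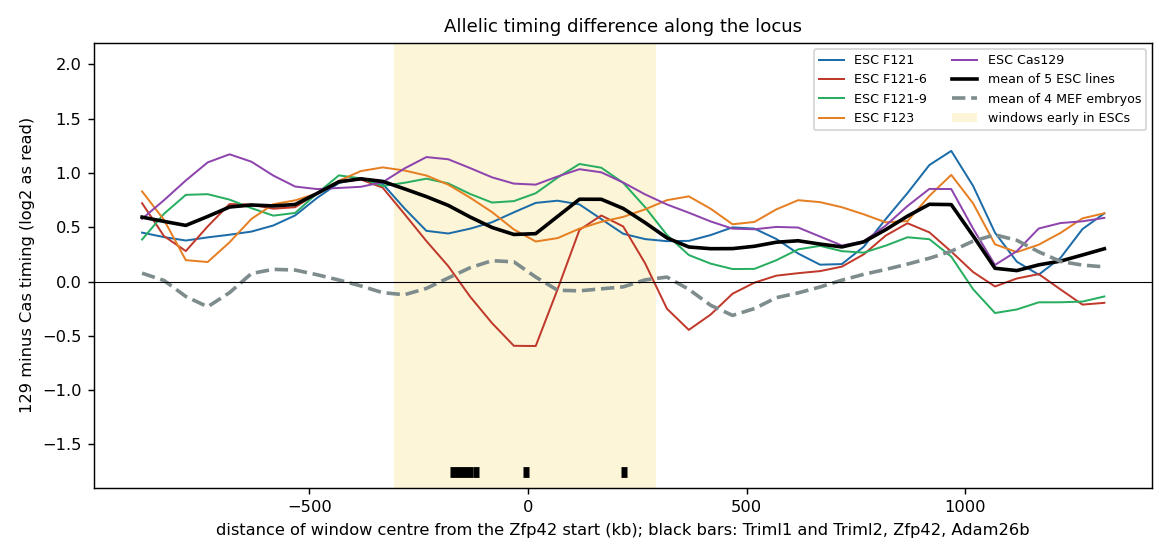
Difference of 129 minus Cas timing (vertical axis) by distance from the Zfp42 start (kb) for each of 5 ESC lines, with their mean in black and the mean of 4 MEF embryos in grey dashes. The lines lie between 0.87 and 1.02 in the window of the largest mean difference on the left, F121-6 falls to -0.59 at Zfp42, and the MEF mean stays within -0.12 to 0.19 in the shaded early stretch.

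The borders of the early stretch were compared between alleles as well. On a slope the earlier allele crosses a fixed level further out, so these offsets are not independent of the allelic differences above. With the border set where the interpolated track crosses 0, the left border on 129 was at 42.94 ± 0.06 Mb and on Cas at 43.01 ± 0.03 Mb (SD, n = 5). The 129 border lay further out by 64.0 kb in F121, 40.4 kb in F121-6, 81.7 kb in F121-9, 71.3 kb in F123 and 122 kb in Cas129, a mean offset of -75.9 ± 30.0 kb, in the same direction in 5 of 5 lines (exact sign-flip permutation test, two-sided p = 0.0625, which is the smallest that 5 lines allow). The right border was at 43.64 ± 0.06 Mb on 129 and 43.58 ± 0.03 Mb on Cas, an offset of 53.1 ± 47.7 kb that had this direction in 4 of 5 lines (exact p = 0.125). It was 61.3 kb with the 2i profiles alone, in 5 of 5 lines (exact p = 0.0625), and 5.83 kb with the border set midway between the highest and the lowest value nearby, in 3 of 5 lines (exact p = 0.688). The early stretch measured 697 ± 116 kb on 129 and 568 ± 59.2 kb on Cas and was longer on 129 by 129.0 ± 77.0 kb, in 5 of 5 lines (exact p = 0.0625). With the midway level it was longer by 62.9 kb, also in 5 of 5 lines, so the size of this difference depends on the level chosen. With F121, F121-6 and F121-9 as 1 unit the left offset was -85.2 kb, in the same direction in 3 of 3 units (exact p = 0.25, the smallest that 3 units allow). Offsets are of the size of 1 or 2 windows, and their positions rest on interpolation. Cas129 had the longest stretch, 894 kb on 129 and 643 kb on Cas. V6.5 had the shortest, 419 kb on 129 and 338 kb on C57B6.

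**Figure D4:**
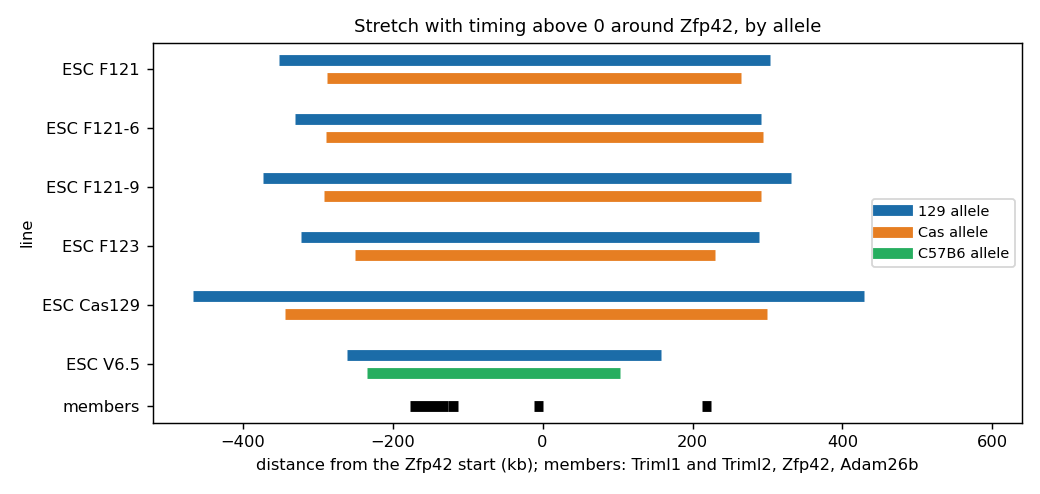
Stretch around Zfp42 with timing above 0 on each allele of the 5 ESC lines and V6.5, by distance from the Zfp42 start (kb, horizontal axis), with the members as black bars. On the left, each 129 bar reaches further than the Cas bar under it, by 40.4 to 122 kb. On the right, F121-6 is the line in which the bars end at the same place, within 2 kb.

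In NPCs and MEFs, where the locus is late, the alleles were not called apart. In MEFs, limma called 0 of 12 windows (0 at an unadjusted p under 0.05; mean difference 0.01, from -0.12 to 0.19), beside 12.9% of autosomal windows. In NPCs, limma called 0 of 12 (1 at an unadjusted p under 0.05; mean 0.08, from -0.68 to 0.56), beside 4.71% of autosomal windows. The member values in MEFs were 0.11 ± 0.11 at Zfp42, 0.08 ± 0.08 at Triml1, 0.13 ± 0.09 at Triml2 and -0.05 ± 0.44 at Adam26b (SD, n = 4). In NPCs, F121-9 had 0.42 at Zfp42 and 1.28 at Adam26b, and Cas129 had 0.28 and -0.16. Of the alternatives run, leaving out the F121-9 NPCs and treating F121, F121-6 and F121-9 as 1 unit each gave 1 called window in NPCs, and none gave any in MEFs.

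The test of the difference between cell types called 6 of the 12 windows for MEFs against ESCs, beside 27.4% of autosomal windows, all with a lower 129 minus Cas value in MEFs (-0.98 to -0.67). They are the 3 windows from 43000001 to 43150000, which include 1 of the windows of Triml1 (-0.67 ± 0.20 SE, limma adjusted p = 0.021), and the 3 from 43350001 to 43500000. Zfp42, Triml2 and Adam26b were not called (limma adjusted p of 0.06 at Adam26b, 0.129 at Triml2, 0.27 and 0.49 at Zfp42). Without F121-6 the count was 10. For NPCs against ESCs 4 windows were called, beside 16.1% of autosomal windows, again with lower values in NPCs (-1.46 to -0.85). Of them, 1 is the Triml1 window at 43100001 (-1.04 ± 0.25 SE, limma adjusted p = 0.012). The 2 Cas129 NPC profiles lay on opposite sides of 0 in the mean of the stretch (0.33 and -0.76), so this unit averages unlike profiles. Without the Cas129 NPCs only 1 window was called.

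XEN cells and V6.5 show other pairs of alleles. In XEN cells the Cas allele was the earlier in 12 of 12 windows, by 0.86 to 1.32, the reverse of its rank in the ESC lines, but against C57B6 and not 129. At Zfp42 the 2 XEN profiles had C57B6 minus Cas values of -1.38 and -1.16, and 4.66% of autosomal windows had a difference as low as the mean over the stretch (-1.06). In V6.5 the 129 allele was earlier than C57B6 in 11 of 12 windows, by 0.55 at Zfp42 and 0.36 at Triml1. Over the autosomes, 26.2% of V6.5 windows had alleles within 0.01 of each other. In the stretch this held for 1 window, that of Adam26b (0.0064), which is counted among the 11.

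Culture medium was compared in F121-6 and F121-9, each with 2 profiles in 2i medium and 2 on feeders. Single profiles were the units here, so p-values of this fit measure the spread between repeat profiles of these lines. With the line as a covariate, limma called 0 of 12 windows of the stretch for a change of timing (1 at an unadjusted p under 0.05; mean 0.19, from -0.19 to 0.64), beside 12.8% of autosomal windows. Leaving out replicate 1 of F121-6 on feeders gave 1 window. On simulated data this fit missed changes larger than any estimate in the stretch, so the count of 0 does not bear on changes of this size. At Zfp42 the mean of both alleles was 2.09 and 2.18 in F121-6 in 2i and 1.95 and 1.79 on feeders, and 2.21 and 2.18 in F121-9 in 2i and 2.29 and 2.05 on feeders. The media overlap in F121-9 and not in F121-6.

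The alleles moved with the medium in opposite ways in these 2 lines. In F121-6, 129 minus Cas at Zfp42 was -0.65 and 0.41 in 2i and -0.92 and -1.21 on feeders, so both feeder profiles had an earlier Cas allele. In F121-9 it was 0.59 and 0.57 in 2i and 0.90 and 1.05 on feeders, so the lead of the 129 allele was wider on feeders. Triml1 went from 0.55 and 0.90 in 2i to -0.51 and -0.94 on feeders in F121-6, and from 0.72 and 0.73 to 0.96 and 1.01 in F121-9. At Adam26b the means in F121-6 were 1.23 in 2i and -0.22 on feeders. In 7 of the 12 windows (58.3%) every feeder profile lay below every 2i profile in F121-6 and above in F121-9, as in 3.32% of autosomal windows. This pattern was noticed in the data and is a description. It was not tested, and repeat profiles of a line are not separate lines.

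**Figure D5:**
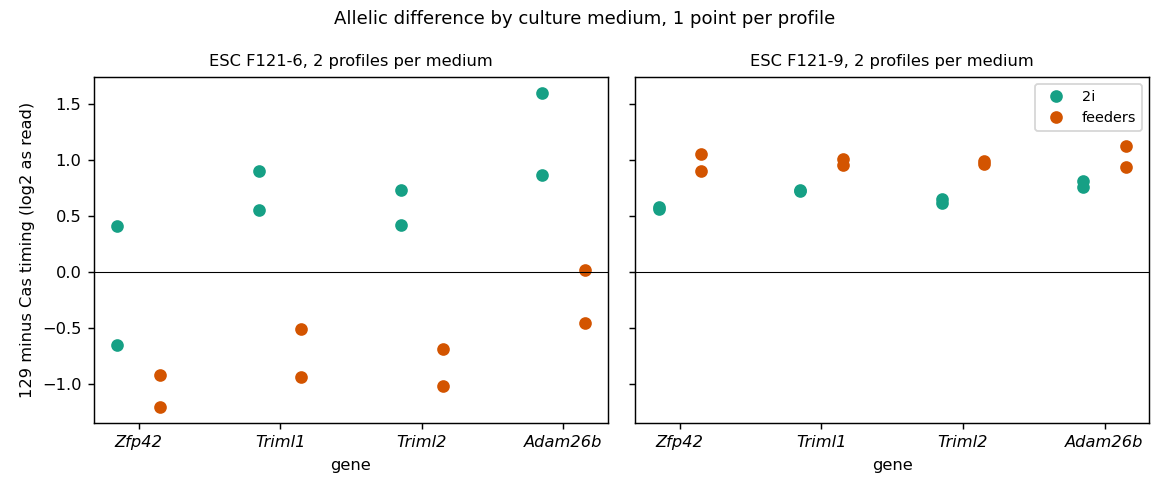
Difference of 129 minus Cas timing (vertical axis) at the 4 members in F121-6 (left) and F121-9 (right), 1 point per profile, by culture medium. In F121-6 the feeder points lie below the 2i points at every member, down to -1.21 at Zfp42, and in F121-9 they lie above them, up to 1.12 at Adam26b.

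The genes on either side of the stretch differed between alleles too. From Mtus1 to Frg1 on the left the Cas allele was the earlier in ESCs (-0.67 to -0.49), with every window called at 4 of the 5 genes. On the right, every window was called with an earlier 129 allele at 8 of the 17 neighbours, which are Adam26a inside the stretch (0.54) and the 7 genes from Fat1 (0.86) to Tlr3 (0.93), with F11, a coagulation factor gene, at 1.30. In MEFs the windows of F11 and of 4 other genes up to Tlr3 were called with an earlier Cas allele (-0.62 at F11, -0.73 at Tlr3). Fat1 had -0.16 there with no window called. Of single autosomal windows, 25.2% were called in ESCs and 12.9% in MEFs, in either direction.

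Zfp42 was also set beside other genes by the likeness of its timing over the 13 lines and embryos, among 17657 protein-coding genes outside chromosome 8. The 5 highest Pearson correlations were those of Efhb on chromosome 17 (0.990), Dppa4 on chromosome 16 (0.989), and AW146154 (0.989), Zfp977 (0.989) and Zfp975 (0.988) on chromosome 7. Dppa4, a nuclear protein of pluripotent cells, had a timing of 1.62 in ESCs, -3.20 in NPCs, -3.51 in MEFs and -2.86 in XEN cells. Efhb, a protein with EF-hand domains, reached a lesser depth, with -1.27 in NPCs and -1.51 in MEFs. The points share the split between 6 early ESC lines and 7 other units, and the list depends on the measure: none of the 5 was among the first 5 by Spearman's rho, and 2 (Dppa4 and AW146154) were by mean absolute difference.

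Of 19 pluripotency genes listed for comparison, 18 had a window. In NPCs 9 of the 18 were later by at least 1 and 0 were earlier by at least 1. Their median ESC minus NPC difference was 1.02, beside -0.03 over all autosomal windows. The share of all windows later in NPCs by at least 1 was not counted. With the added condition of no overlap of lines, it was 15.8% of autosomal windows. Dppa2 and Dppa4, which lie next to each other, were the only ones of the 18 with NPC timing below -3 (-3.14 and -3.20). Pou5f1, which encodes Oct4, stayed early in NPCs (2.26) and MEFs (3.23), and Nanog lay at 0.78 in NPCs. Of the YY1 relatives, Yy1 did not share the late replication of Zfp42, with 2.50 in NPCs and 2.11 in MEFs. Yy2, on the X, was at 2.00 in ESCs, 0.48 in NPCs and -0.28 in MEFs. These Yy2 values average both alleles. The X was flat on 129 in MEF embryos 1 and 4 (SD of 0.278 and 0.229) and on Cas in F123 (0.177). The ESC and MEF values of Yy2 thus include flat tracks and cannot be read as its timing.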

How the data were processed

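Allele-specific Repli-Seq was used on 27 profiles (54 libraries, 54 columns) of F1 hybrid mouse cells. Per the file headers, the authors had deposited 1 column of signed values, taken here as log2, for each allele of each profile in 50 kb windows. These were read as early over late signal, since the labels give 1 early and 1 late library per profile, while the log base and the direction are not stated. The submitters' processing notes name mm10, Bowtie2, SAMtools and bedtools; how alleles were assigned, and whether tracks were smoothed, is not given in the sources used here. Adjacent windows are not independent (r of 0.979 to 0.996 between them).

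A gene's value is the mean over the windows that overlap it (RefSeq, GRCm38.p6). Profiles of a line or embryo were averaged. With limma 3.58.1 (R 4.3.3), 129 minus Cas was tested in each autosomal window over 11 lines or embryos, and feeders minus 2i over 8 profiles with the line as a covariate, two-sided, with Benjamini-Hochberg adjustment over 43941 windows. On simulated data with few changed windows, the allelic fit recovered most changes of the simulated size in ESCs and MEFs and fewer in NPCs, and the medium fit recovered only larger ones. Borders were interpolated between window centres. Replicate numbers did not pair profiles (deviations of like-numbered profiles correlated at -0.07 to 0.04 in allelic difference and -0.40 to 0.30 in timing over 55 pairs of groups).

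The members, lists and tests were chosen with earlier results of these data known. Named genes are the members, the protein-coding genes within 2 Mb (by counts and by those next to the borders), the 5 genes outside chromosome 8 most correlated with Zfp42, and a pluripotency and a YY1 family list. Alternatives were scaling, left-out or merged units, blocks, medium, the border level, the placement of a gene and the measure of likeness. V6.5 and XEN cells stayed out of the fits.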

Additional observations from a re-analysis of the deposited data

Results flagged for a closer look

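The allelic difference differed between cell types in part of the early stretch, by the test of the difference itself. For MEFs minus ESCs limma called 6 of 12 windows, beside 27.4% of autosomal windows, and for NPCs minus ESCs 4 of 12, beside 16.1%, all with a lower 129 minus Cas value than in ESCs. Of the members' windows, the Triml1 window at 43100001 was the only one called in either comparison. Those of Zfp42, Triml2 and Adam26b were not. The 2 Cas129 NPC profiles differed in sign in the mean of the stretch (0.33 and -0.76). Without the Cas129 NPCs, 1 window was called for NPCs minus ESCs.

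At the members and in the mean of the stretch, every feeder profile moved away from every 2i profile in opposite directions in F121-6 and F121-9. Of the 12 single windows 7 had this pattern, and it was not tested. The change of 129 minus Cas from 2i to feeders in F121-6, minus the same change in F121-9, was -1.34 at Zfp42, -1.71 at Triml1, -1.77 at Triml2, -1.70 at Adam26b and -1.28 as the mean of the 12 windows.

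Among MEF embryos, embryo 4 stood apart at Zfp42 on the Cas allele, with -3.69 against -4.07 to -4.01 in the other 3. It was the 1 of 38 groups of values looked at in this way that held such a sample, and chance gives about 1 in 20.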

How the results depend on the processing

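Scaling moved the description of timing: after median centring Zfp42 was earlier in ESCs than in MEFs by 6.43 (5.79 as reported) and than in XEN cells by 4.61 (3.95), and after quantile normalization than in XEN cells by 4.42. With profiles as units and the replicate block, 9 of the 12 windows were called in ESCs, 0 in NPCs, 0 in MEFs, 6 for MEFs minus ESCs and 3 for NPCs minus ESCs, and the replicate block beside the line gave 0 for feeders minus 2i, so the block moved no count by over 1.5 times. With each unit left out in turn, the called windows ran from 7 to 12 in ESCs, 0 to 1 in NPCs, 4 to 10 for MEFs minus ESCs (10 without F121-6), 1 to 5 for NPCs minus ESCs (1 without the Cas129 NPCs) and 0 to 1 for feeders minus 2i, and in MEFs the count stayed at 0. A line effect for F121-9 and Cas129, chosen after seeing the data, left 4 for NPCs minus ESCs. F121, F121-6 and F121-9 as 1 unit, also chosen after seeing the data, gave 11 in ESCs, 1 in NPCs, 0 in MEFs, 7 for MEFs minus ESCs and 4 for NPCs minus ESCs. The other scalings, the 2i profiles alone, the random block and the sign of the border offsets kept their side, and the left offset ran from -84.8 to -64.3 kb without single lines. With the border level midway between extremes the right offset was 5.83 kb and the length difference 62.9 kb. Signs that turned belong to differences that were not called: leaving out units gave -0.365 to 0.228 at Triml1, -0.125 to 0.528 at Triml2 and -0.157 to 1.28 at Adam26b in NPCs, and -0.234 to 0.12 at Adam26b in MEFs, where quantile normalization gave 0.0224. The cause was not tested. Depth is unknown, and 2 NPC lines limit what can be called there.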
